A study of Monodelphis domestica with 18 samples.

Results

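Opossum kidney (OK) cells, an established line with features of the kidney proximal tubule, were compared after 96 h on an orbital shaker (OSS, orbital shear stress) and after 96 h at rest (static). The comparison took the 3 OSS 96 h libraries and the 3 Static 96 h libraries, 6 of the 18 libraries of the study, as their labels give condition and time. It covered the 12840 of 23899 annotated genes with more than 1 CPM (counts relative to the library total) in at least 6 of the 18 libraries. OSS cells had been moved to a shaker turning at 146 rpm on the day after plating, and static cells were kept beside them without movement. Both groups were OK cells plated on permeable supports in DMEM/F12 with fetal bovine serum and GlutaMAX. All libraries came from 1 line, and each held the pooled RNA of 3 experiments, so p-values measure only the spread between these pools. Shear and the mixing of the medium by the shaker come together in this design and cannot be told apart.

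Cells of the proximal tubule take back most of the filtered solutes and proteins. They do so with a brush border of microvilli, sodium-coupled carriers and the endocytic receptors megalin and cubilin, and they make glucose from lactate and amino acids while burning little of it. In culture such cells tend to lose these features and to turn to glycolysis, and fluid flow over the apical surface is studied as a way to bring them back.

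The 6 libraries held 40154553 to 79745362 counts. Within each condition replicates 2 and 3 were closest to each other, with Pearson r of log2 CPM of 0.994 in OSS and 0.995 in static cells, against 0.982 to 0.987 for the pairs with replicate 1. The replicate 1 libraries therefore stood apart in both conditions, and counts without them are given below. A second fit, called blocked here, compared OSS and static libraries of equal replicate number. Levels are CPM scaled by edgeR's TMM factors over the 18 libraries, listed as replicates 1, 2 and 3, and compare libraries and not genes, since they are not per length. Fold changes are log2 of OSS over static with their standard error, and "rose" and "fell" mean higher and lower in OSS at an adjusted p under 0.05 in edgeR's quasi-likelihood F-test.

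Proximal tubule markers were present for the most part. Of the 17 markers 14 were tested, with a summed level of 14729 to 17011 CPM in OSS and 10283 to 10809 CPM in static libraries, and AQP1, a water channel of this segment, had at most 3 reads in an OSS and 11 in a static library. Of the 14 markers 8 rose, SLC7A9 fell and 5 did not pass. Defining markers of other kidney and blood cells were near 0: CDH5 of endothelium had 0 to 1 reads, COL3A1 of fibroblasts 0 to 2, UMOD of the thick ascending limb 2 to 30 and PTPRC of leukocytes 7 to 32. The marker lists of other cells still moved in places. The tested members of the fibroblast and pericyte list summed to 44.8 to 54.5 CPM in OSS and 91.1 to 98.8 CPM in static libraries, with PDGFRB at 15.8, 15.4 and 19.4 CPM in OSS, against 46.4, 47.7 and 46.3 CPM in static cells. Those of the collecting duct list summed to 39 to 65.8 CPM in OSS and 102 to 166 CPM in static libraries. Most of the static sum was 1 gene, the keratin KRT7, at 88.8, 125 and 147 CPM. KRT7 fell (-3.47 ± 0.29, adjusted p = 0.000128) and is also a member of the injury list below. The water channel AQP3 rose (1.62 ± 0.21, adjusted p = 0.000743), and 3 members did not pass, so the lower sum does not describe the list. SLC12A1, the sodium-potassium-chloride carrier of the thick ascending limb, had 26.1, 31.8 and 38.7 CPM in OSS, against 3.28, 4.87 and 5.26 CPM in static cells. In bulk RNA fewer cells of a kind and less RNA per cell cannot be told apart, and the part of these markers in the results below was not tested.

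In all, 6636 genes (51.7%) passed the test, 3282 (25.6%) higher and 3354 (26.1%) lower in OSS. Their median absolute log2 fold change was 0.54. At least 2-fold changes numbered 441 rises (3.43%) and 799 falls (6.22%), and at least 4-fold changes 104 rises (0.81%) and 203 falls (1.58%). For 7775 genes (60.6%) the libraries of OSS and static cells did not overlap. Without both replicate 1 libraries 6837 genes passed, 3326 higher and 3511 lower. These shares are the background for the counts of list members and for the separated libraries that follow. Most members described singly were among the largest called changes of their list, which favors separated libraries. LDHA (7 entries), ACTB and CYP3A5 (4 each), and ALDH1A1, RRM2, PNP and CTSC (2 each) had more than 1 tested entry under their name. The entry with the most reads is given, the other entries moved in the same direction, and how near-identical copies shared reads is uncertain.

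To rank the changes by size, genes had to be called, reach a mean log2 CPM of 1, show no overlap between groups and have 1 tested entry. The potassium channel subunit KCNJ16 (5.17), described below with the channels, missed the level limit with a mean log2 CPM of 0.97. URAD, which completes the breakdown of urate to allantoin, had 7.93, 8.54 and 4.96 CPM in OSS, against 0.066, 0.0175 and 0.0697 CPM in static cells. Static libraries held close to no reads of URAD, and its log2 fold change was 7.09 ± 0.41, adjusted p = 3.83e-05. VTN, the plasma and matrix protein vitronectin, stood at 5.98, 13.7 and 6.68 CPM in OSS and 0.066, 0.227 and 0.0872 CPM in static cells, with replicate 2 highest in both (6.06 ± 0.53, adjusted p = 0.000148). OTC, the urea cycle enzyme ornithine transcarbamylase, reached 346, 380.3 and 160.4 CPM in OSS, against 7.39, 12.6 and 10.9 CPM in static cells (4.84 ± 0.39, adjusted p = 0.000110). MAMDC4, a membrane glycoprotein of apical endosomes, had 96.9, 103 and 54.7 CPM in OSS, against 5.02, 6.23 and 5.86 CPM in static cells (3.89 ± 0.26, adjusted p = 6.27e-05). Every OSS library lay above every static library for these genes, as the ranking required. PTGDS, which makes prostaglandin D2, had 194, 282 and 143 CPM in OSS and 4.4, 14.2 and 12.3 CPM in static cells (4.32 ± 0.46, adjusted p = 0.000357). The other rises among the 12 were TTR (transthyretin, 5.84), FGA (fibrinogen alpha chain, 4.52), AGXT2 (a mitochondrial aminotransferase, 4.41), APOH (a phospholipid-binding plasma protein, 4.35), CPO (a brush border carboxypeptidase, 3.97), SERPINC1 (antithrombin, 3.87) and SERPINA10 (an inhibitor of coagulation factor X, 3.87).

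Among the largest falls were genes close to silent in OSS. DHRS9, a retinol and steroid dehydrogenase, had 0.15, 0.167 and 0.435 CPM in OSS, against 35.3, 41.7 and 54.5 CPM in static cells (-7.34 ± 0.35, adjusted p = 2.02e-05). ANKRD1, an ankyrin repeat protein and target of the coactivator YAP, had 0.375, 0.208 and 0.166 CPM in OSS, against 36, 28.2 and 23.4 CPM in static cells (-6.98 ± 0.29, adjusted p = 1.27e-05). TGM2, a transglutaminase that crosslinks proteins, had 3.6, 11.1 and 21.8 CPM in OSS, against 532, 752 and 693 CPM in static cells (-5.74 ± 0.62, adjusted p = 0.000370). For all 3 the groups were far apart in every library, though the OSS levels of TGM2 themselves ranged widely. PKHD1L1, which encodes fibrocystin-L, had 0.675, 0.861 and 1.32 CPM in OSS, against 35, 44.8 and 53.5 CPM in static cells (-5.50 ± 0.27, adjusted p = 2.07e-05). MMP27, a matrix metalloproteinase, had 0.50, 1.54 and 3.0 CPM in OSS, against 38.6, 85.9 and 99.8 CPM in static cells (-5.38 ± 0.59, adjusted p = 0.000375), with replicate 1 lowest in both conditions. FAM196B had 1, 0 and 2 reads in OSS, against 129, 332 and 350 reads in static cells, so static cells held 322 times the read share of OSS cells (95% counting interval 109.9 to 1566). C8ORF48 (-6.69), ADGRF5, an adhesion receptor (-5.68), DNAH3, a dynein heavy chain of motile cilia (-5.30), and PSTPIP1, a cytoskeletal adaptor (-5.27), fell as well.

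**Figure D1:**
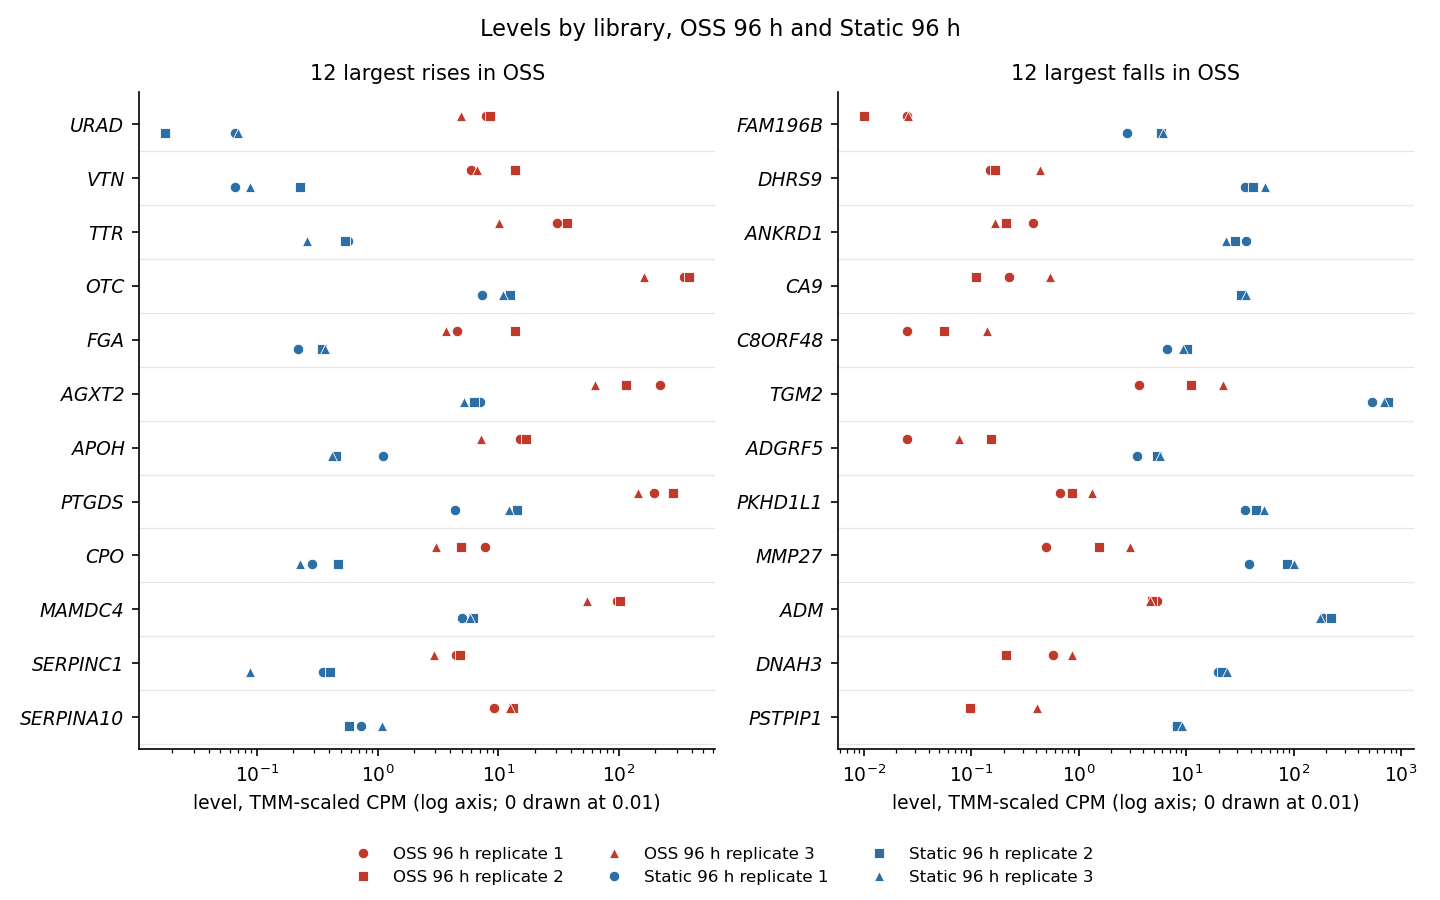
Level of each gene in each of the 6 libraries (TMM-scaled CPM, log axis, 0 drawn at 0.01) for the 12 largest rises (left) and the 12 largest falls (right) among called genes with a mean log2 CPM of at least 1; each gene has a row of red OSS 96 h points drawn over a row of blue Static 96 h points, and the shape gives the replicate. The red and blue points of each gene do not overlap along the axis, which the choice of genes required. The OSS levels of the largest falls lie under 1 CPM in 27 of 36 cases.

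Smaller changes concerned genes that hold many reads. DPP4, a brush border peptidase, had 5178, 4371 and 3571 CPM in OSS, against 1099.5, 1133 and 1058 CPM in static cells (1.99 ± 0.13, adjusted p = 6.35e-05). HSP90B1, a chaperone of the endoplasmic reticulum, had 2380.1, 2879 and 2598 CPM in OSS and 1410.0, 1653 and 1713 CPM in static cells (0.71 ± 0.10, adjusted p = 0.00117). LGMN, the lysosomal protease legumain, had 2953, 2522 and 1864 CPM in OSS and 1577, 1478 and 1273 CPM in static cells (0.76 ± 0.17, adjusted p = 0.00791). OSS libraries were above static ones throughout, which the choice of these genes required, and LGMN was highest in replicate 1 of both. On the falling side, APLP2, a relative of the amyloid precursor protein, had 2521, 3455 and 3635 CPM in OSS and 4799.8, 6216 and 7433 CPM in static cells (-0.95 ± 0.19, adjusted p = 0.00534). The changes of SYNE2, a nuclear envelope protein (0.23 ± 0.08, adjusted p = 0.0373), and of the unnamed locus LOC100011677 (-0.20 ± 0.06, adjusted p = 0.0240) were small. SYNE2 did not pass when any library other than Static 96 h replicate 1 was left out (adjusted p 0.0606 to 0.135), nor LOC100011677 when Static 96 h replicate 1 or 2 or OSS 96 h replicate 2 or 3 was left out (0.0677 to 0.107).

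**Figure D2:**
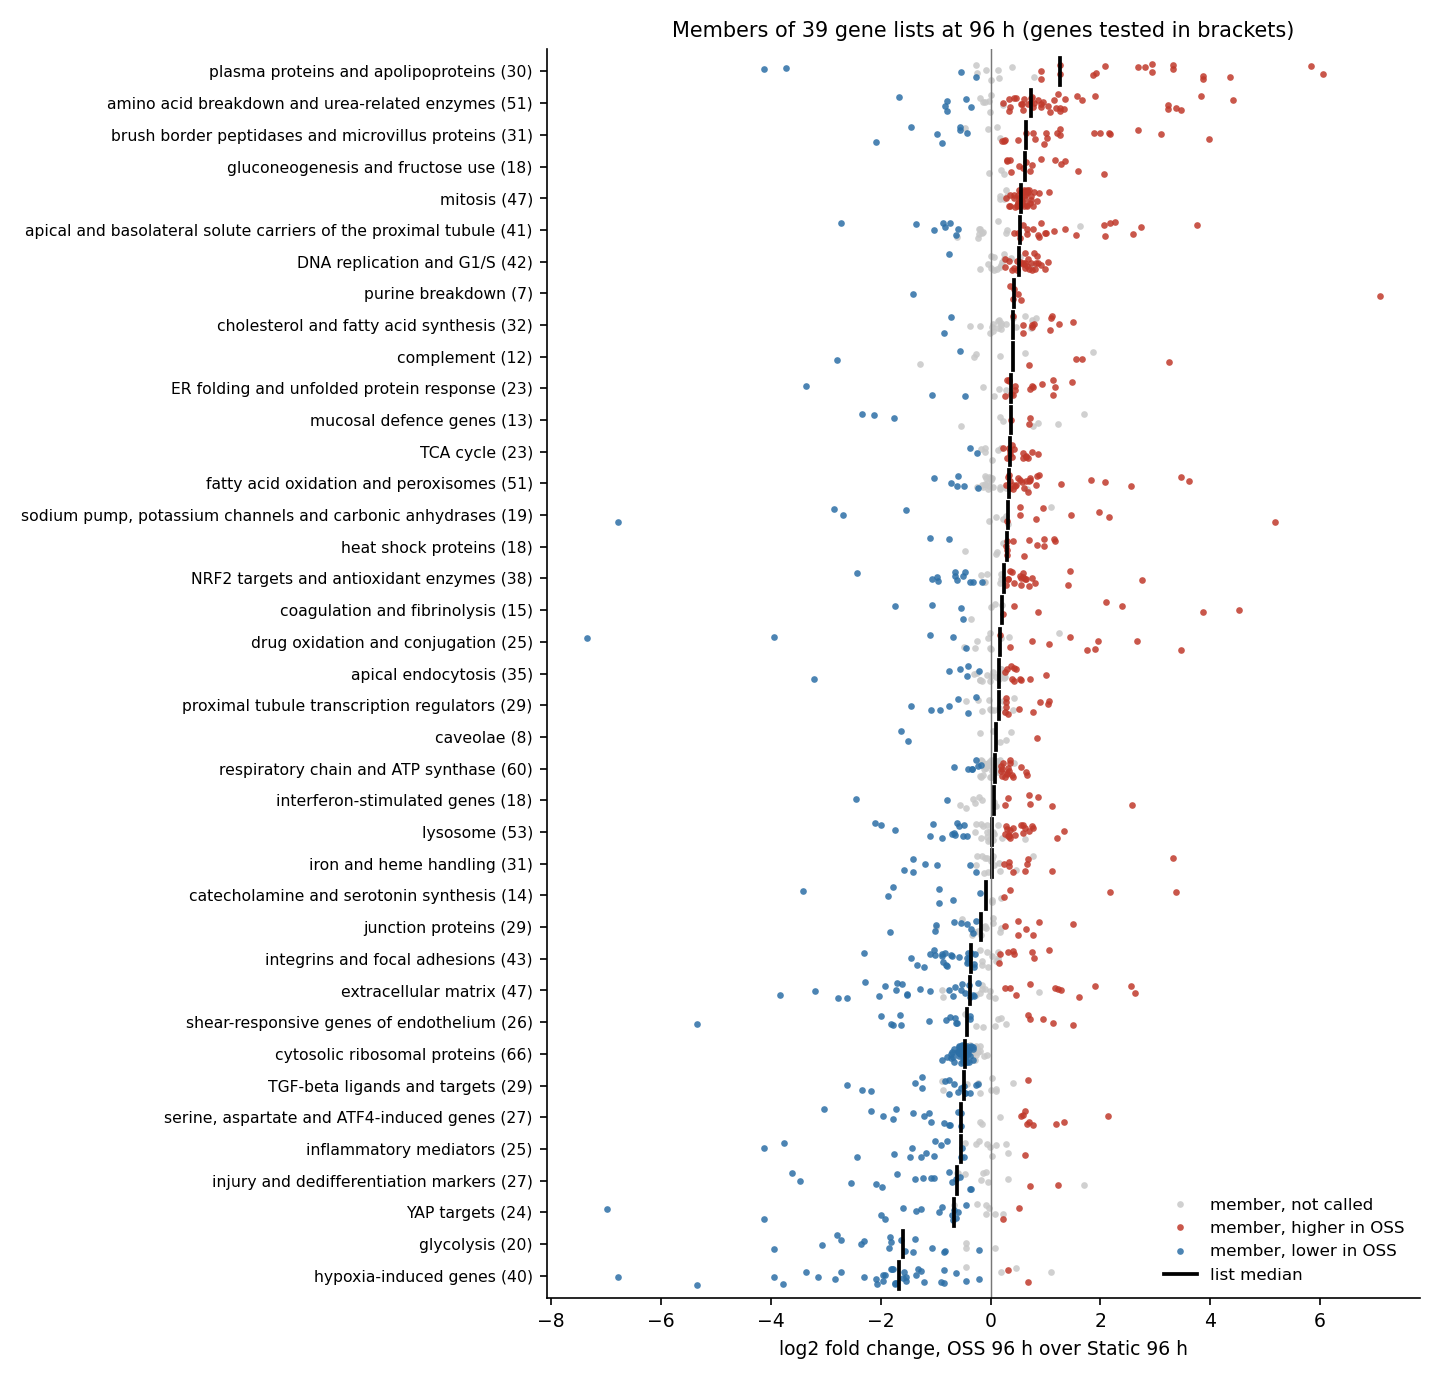
Log2 fold change of OSS 96 h over Static 96 h for each tested member of 39 gene lists, ordered by list median (black bars); red members rose, blue members fell and gray members did not pass the test. Hypoxia-induced genes and glycolysis have the lowest medians (-1.66 and -1.60) and plasma proteins the highest (1.27).

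Genes induced by low oxygen, which cells switch on through hypoxia-inducible factors, were lower in OSS. Of 40 tested members of that list 34 fell, 28 of them at least 2-fold, and 2 rose, with a median of -1.66 against -0.0019 over all genes. ADM, the vasodilator peptide adrenomedullin, had 5.3, 4.8 and 4.64 CPM in OSS, against 189.5, 224 and 178 CPM in static cells, and had the smallest adjusted p among the genes named here (-5.33 ± 0.12, adjusted p = 5.01e-06). CA9, a membrane carbonic anhydrase and a common marker of hypoxia, had 0.225, 0.111 and 0.537 CPM in OSS, against 32.5, 32.6 and 35.7 CPM in static cells (-6.78 ± 0.38, adjusted p = 3.54e-05). These genes differed by more than an order of magnitude between the groups in every library. STC1, the hormone stanniocalcin, had 17, 19.1 and 28.2 CPM in OSS, against 297, 255 and 326 CPM in static cells (-3.77 ± 0.21, adjusted p = 3.40e-05). ERO1A, which reoxidizes disulfide isomerase in the endoplasmic reticulum, had 44.9, 48 and 72.3 CPM in OSS, against 523, 574 and 590.3 CPM in static cells (-3.36 ± 0.19, adjusted p = 3.69e-05). STC1 and ERO1A were highest in OSS replicate 3, still far under the static libraries. Summed over the list, levels were 2772, 2726 and 2630.0 CPM in OSS libraries, against 7696, 7971 and 7922 CPM in static libraries. The rises numbered 5 in the blocked fit and 0 without OSS replicate 2 or static replicate 3.

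Glycolysis moved with them. Of 20 glycolytic genes 17 fell, 14 of them at least 2-fold, and 0 rose, with a median of -1.60. At an unadjusted p under 0.05 edgeR also gave 0 rises, as did DESeq2. The members that did not pass included the hexokinase HKDC1 (0.09) and PFKFB4, a regulator of the pathway (-0.45), which passed in the blocked fit (adjusted p = 0.000135). HK1, a hexokinase that commits glucose to the pathway, had 22.8, 19.3 and 21.2 CPM in OSS, against 163, 146 and 131 CPM in static cells (-2.80 ± 0.10, adjusted p = 1.06e-05). SLC2A1, the basolateral glucose transporter GLUT1, had 36.5, 42.1 and 45.7 CPM in OSS, against 245, 278 and 298 CPM in static cells (-2.73 ± 0.11, adjusted p = 1.27e-05). HK1 and SLC2A1 were tight within each group and far apart between them. ALDOA, the muscle-type aldolase, had 2078, 2431 and 2969 CPM in OSS, against 8523, 8865 and 9119.9 CPM in static cells (-1.83 ± 0.13, adjusted p = 6.99e-05). LDHA, which makes lactate, had 191, 179 and 299.6 CPM in OSS, against 1116, 1159.8 and 1131 CPM in static cells (-2.35 ± 0.19, adjusted p = 0.000121). Replicate 3 was the highest OSS library for ALDOA and LDHA and still lay at less than the lowest static one. PFKP (-3.06), ENO2 (-3.94), PKM (-1.07) and GAPDH (-0.84) fell too, and the summed level of the list was 14094 ± 2062 CPM in OSS and 38873 ± 845 CPM in static libraries (SD, n = 3 each).

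The opposite path, glucose synthesis and the use of fructose, went up. Of 18 members 15 rose and 0 fell, with a median of 0.62; edgeR at an unadjusted p under 0.05 and DESeq2 also gave 0 falls. KHK, the fructose kinase, had 1328, 1389.6 and 1205 CPM in OSS, against 507, 526 and 571 CPM in static cells (1.29 ± 0.08, adjusted p = 5.29e-05). KHK was even across the replicates of a group. SLC2A5, the fructose transporter GLUT5, had 241, 214 and 187 CPM in OSS, against 52.6, 50.8 and 49.6 CPM in static cells (2.07 ± 0.10, adjusted p = 2.02e-05). FBP1, the bisphosphatase specific to glucose synthesis, had 20.9, 17.9 and 19.7 CPM in OSS, against 6.64, 7.77 and 8.47 CPM in static cells (1.35 ± 0.12, adjusted p = 0.000156). No OSS library overlapped a static one for KHK, SLC2A5 or FBP1, which were picked for their large changes. GLYCTK, a glycerate kinase, rose by 1.59. Summed levels were 11219, 11643 and 11263 CPM in OSS libraries, against 6317, 6749 and 6777 CPM in static libraries.

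Mitochondrial genes changed less. In the TCA cycle 15 of 23 members rose and 2 fell (median 0.35), among them DLST, a subunit of the oxoglutarate dehydrogenase complex, at 916, 947 and 892 CPM in OSS, against 497, 517 and 494 CPM in static cells (0.87 ± 0.06, adjusted p = 5.70e-05). PC, pyruvate carboxylase, rose by 0.75 and IDH3A, a subunit of isocitrate dehydrogenase, by 0.65. The falls in the TCA cycle numbered 1 without OSS replicate 1 or 2 or static replicate 2 or 3. Of 60 respiratory chain and ATP synthase subunits 17 rose and 7 fell (median 0.09). CYCS, cytochrome c, had 111, 107 and 101 CPM in OSS and 72.8, 67.3 and 64 CPM in static cells (0.64 ± 0.07, adjusted p = 0.000317), while ATP5MC2, a subunit of the membrane ring of ATP synthase, had 45.1, 41.8 and 41.1 CPM in OSS and 70.8, 67.3 and 65.3 CPM in static cells (-0.67 ± 0.06, adjusted p = 0.000179). In the blocked fit 26 subunits rose and 11 fell. Leaving out Static 96 h replicate 2 gave 10 rises, leaving out Static 96 h replicate 3 gave 11 rises and 4 falls, and leaving out OSS 96 h replicate 2 gave 3 falls.

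RNA of the fatty acid and peroxisome list rose more often than it fell. Of 51 members of fatty acid oxidation and peroxisomes 27 rose, 6 of them at least 2-fold. Another 6 fell, 1 of them at least 2-fold, and the median was 0.34. CYP4A11, which hydroxylates fatty acids at their end, had 389, 300.1 and 239 CPM in OSS, against 33.1, 25.4 and 24.9 CPM in static cells (3.47 ± 0.21, adjusted p = 4.42e-05). FABP1, the liver-type fatty acid binding protein, had 221, 269.5 and 286 CPM in OSS, against 11.7, 20.6 and 30.8 CPM in static cells (3.61 ± 0.34, adjusted p = 0.000195). Both were several-fold higher in each OSS library than in any static one. ACSM2A, a ligase of medium-chain acids, had 182, 151 and 90.0 CPM in OSS, against 43.2, 34.1 and 21.9 CPM in static cells, with replicate 1 highest in both (2.09 ± 0.32, adjusted p = 0.00157). AMACR, a racemase for branched fatty acids, rose by 1.82 and HAO1, a peroxisomal oxidase of glycolate, by 2.56.

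Amino acid breakdown was among the lists with the highest medians (0.74). Of 51 members 38 rose, 18 of them at least 2-fold, and 6 fell, 1 of them at least 2-fold. DPYS, which opens the ring of dihydropyrimidines, had 1117, 855 and 555 CPM in OSS, against 115, 92.6 and 60.5 CPM in static cells (3.24 ± 0.32, adjusted p = 0.000266). ACMSD, which diverts tryptophan breakdown away from NAD synthesis, had 30.1, 26.7 and 21.2 CPM in OSS, against 2.27, 2.48 and 2.25 CPM in static cells (3.47 ± 0.16, adjusted p = 1.60e-05). AGXT2 had 218, 115 and 63.2 CPM in OSS, against 7.06, 6.36 and 5.21 CPM in static cells (4.41 ± 0.46, adjusted p = 0.000325). In OSS cells DPYS and AGXT2 were highest in replicate 1 and lowest in replicate 3, and all OSS values exceeded all static ones. UROC1, an enzyme of histidine breakdown, had 21.9, 23.7 and 12.8 CPM in OSS, against 2.05, 1.47 and 0.627 CPM in static cells (3.83 ± 0.42, adjusted p = 0.000377). DDC, the decarboxylase by which the tubule makes dopamine, had 34.7, 38.5 and 18.5 CPM in OSS, against 3.23, 2.88 and 2.68 CPM in static cells (3.38 ± 0.29, adjusted p = 0.000135). Purine breakdown had 7 tested members, of which 6 rose, including PNP (0.56) and GDA (0.43), and 1 fell, the AMP deaminase AMPD3 (-1.42).

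Secreted plasma proteins had the highest median of the 39 lists (1.27). The limit of 1 CPM in 6 of the 18 libraries can be met by OSS libraries of 48 and 96 h alone. VTN met it that way, with means of 2.24 CPM in OSS 48 h and 0.248 CPM in Static 48 h. The median and the rises of this list thus depend in part on that limit, and how far was not tested. Of 30 tested members 18 rose, 16 of them at least 2-fold, and 4 fell, 2 of them at least 2-fold, while 24 of the 54 listed were not among the genes tested. TTR had 30.7, 37.4 and 10.1 CPM in OSS, against 0.572, 0.541 and 0.261 CPM in static cells (5.84 ± 0.60, adjusted p = 0.000299). APOH had 15.1, 17.1 and 7.25 CPM in OSS, against 1.1, 0.454 and 0.418 CPM in static cells (4.35 ± 0.47, adjusted p = 0.000369). These genes were lowest in OSS replicate 3, which was still well above every static library. IGFBP3, a carrier of insulin-like growth factors, went the other way, with 4.08, 7.56 and 14.2 CPM in OSS, against 111, 150.5 and 196 CPM in static cells (-4.12 ± 0.45, adjusted p = 0.000375). The falls numbered 2 without OSS replicate 3 or static replicate 3. The summed level of the list was 6219, 7133 and 6266 CPM in OSS libraries, against 3179, 3385 and 3563 CPM in static libraries.

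Clotting and complement genes were mixed. Of 15 coagulation and fibrinolysis genes 7 rose and 4 fell. FGB, the fibrinogen beta chain, had 192, 341 and 188 CPM in OSS, against 46.1, 47.3 and 43.1 CPM in static cells (2.40 ± 0.23, adjusted p = 0.000237), and FGA had 4.58, 13.7 and 3.67 CPM in OSS, against 0.22, 0.349 and 0.366 CPM in static cells (4.52 ± 0.62, adjusted p = 0.000944). Both chains were highest in OSS replicate 2. PLAU, the urokinase that activates plasminogen, had 7.18, 6.15 and 8.87 CPM in OSS, against 24.5, 23.4 and 26.5 CPM in static cells (-1.75 ± 0.14, adjusted p = 0.000118). The coagulation falls numbered 2 without Static 96 h replicate 1 or 2 or without both replicate 1 libraries, and 1 without OSS replicate 2 or static replicate 3. Of 12 complement genes 4 rose and 2 fell. C5, a component of the terminal pathway, had 2697, 3015 and 2431 CPM in OSS, against 905, 891 and 974 CPM in static cells (1.55 ± 0.09, adjusted p = 4.54e-05). C1R, a protease of the first component, had 8.0, 15 and 15.7 CPM in OSS, against 62.7, 92.8 and 115 CPM in static cells (-2.80 ± 0.31, adjusted p = 0.000383).

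The apical uptake machinery changed by small amounts. Of 35 endocytosis genes 11 rose and 6 fell, and 18 did not pass (median 0.16); in the blocked fit 18 rose. LRP2, which encodes megalin, had 6899, 6685 and 5628 CPM in OSS and 4413, 4034 and 4681 CPM in static cells. CUBN, which encodes cubilin, had 1909, 1729 and 1505 CPM in OSS and 1290.0, 1138 and 1109.9 CPM in static cells. OSS libraries of both receptors lay above all static ones, with replicate 3 lowest in OSS. DAB2, the adaptor that links megalin to clathrin, had 401, 375 and 339 CPM in OSS, against 205, 174 and 171 CPM in static cells (1.01 ± 0.10, adjusted p = 0.000208). CLTC, the clathrin heavy chain, had 511, 582 and 604 CPM in OSS, against 346, 323 and 364 CPM in static cells (0.71 ± 0.08, adjusted p = 0.000482). Both were separated between the groups, and DNM2, the dynamin that cuts vesicles off, rose by 0.37 (adjusted p = 0.00159). LRP2BP, a protein that binds megalin, had 5.58, 5.15 and 10.8 CPM in OSS, against 67.9, 67.8 and 64.1 CPM in static cells (-3.20 ± 0.27, adjusted p = 0.000140). AP2A1, a subunit of the AP2 adaptor, fell (-0.75). RAB11A, a small GTPase of recycling endosomes, had 114, 113 and 114 CPM in OSS and 111, 107 and 100.3 CPM in static cells and did not pass (0.09 ± 0.05, adjusted p = 0.194). AMN, the anchor of cubilin, did not pass either (0.16 ± 0.09, adjusted p = 0.162), but did in the blocked fit (adjusted p = 0.0196).

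Carriers of the proximal tubule leaned higher. Of 41 tested members 22 rose, 11 of them at least 2-fold, and 8 fell, 3 of them at least 2-fold, with a median of 0.53. SLC26A1, a sulfate and oxalate exchanger of the basolateral side, had 9.63, 10.6 and 9.44 CPM in OSS, against 0.638, 0.908 and 0.627 CPM in static cells (3.76 ± 0.17, adjusted p = 1.61e-05). SLC22A6, the organic anion transporter OAT1, had 39.5, 31.8 and 45.5 CPM in OSS, against 6.6, 5.03 and 5.82 CPM in static cells (2.74 ± 0.16, adjusted p = 4.28e-05). SLC16A9, a carrier of the monocarboxylate family, had 28.9, 27.9 and 30.9 CPM in OSS, against 5.15, 4.56 and 4.72 CPM in static cells (2.60 ± 0.09, adjusted p = 1.06e-05). For these carriers the OSS replicates were close together and several-fold above the static ones. SLC13A2, the apical citrate carrier, had 2.33, 2.8 and 5.34 CPM in OSS, against 0.286, 0.576 and 1.29 CPM in static cells (2.26 ± 0.54, adjusted p = 0.0110). Replicate 3 was highest in both conditions for SLC13A2. SLC34A1, the phosphate carrier NaPi-IIa, had 264, 160.0 and 119.8 CPM in OSS, against 106, 86.4 and 93.4 CPM in static cells (0.93 ± 0.27, adjusted p = 0.0228), and SLC5A12, a lactate carrier, rose by 1.16. SLC34A1 did not pass without Static 96 h replicate 2 (adjusted p = 0.0764) or 3 (adjusted p = 0.0654).

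The brush border list, peptidases and microvillus proteins, showed 20 rises, 12 of them at least 2-fold, and 7 falls, 2 of them at least 2-fold, among 31 tested members (median 0.65). MME, the peptidase neprilysin, had 379, 307 and 263 CPM in OSS, against 38.3, 38.8 and 32.4 CPM in static cells (3.11 ± 0.15, adjusted p = 2.07e-05). DPEP1, a dipeptidase of the renal brush border, had 439, 374 and 234 CPM in OSS, against 88, 87.7 and 57.2 CPM in static cells (2.17 ± 0.26, adjusted p = 0.000594). FAM151A had 24.5, 34.3 and 54.7 CPM in OSS, against 3.06, 4.38 and 9.99 CPM in static cells (2.69 ± 0.48, adjusted p = 0.00301). MME and DPEP1 were lowest in OSS replicate 3 and FAM151A was highest there, in each case without overlap with static cells. Choosing members by large changes favored such separation. CA4, a membrane carbonic anhydrase, had 3.93, 6.19 and 8.64 CPM in OSS, against 0.506, 1.12 and 2.53 CPM in static cells (2.16 ± 0.53, adjusted p = 0.0124). The falls numbered 4 without OSS replicate 2 or static replicate 2 or 3.

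**Figure D3:**
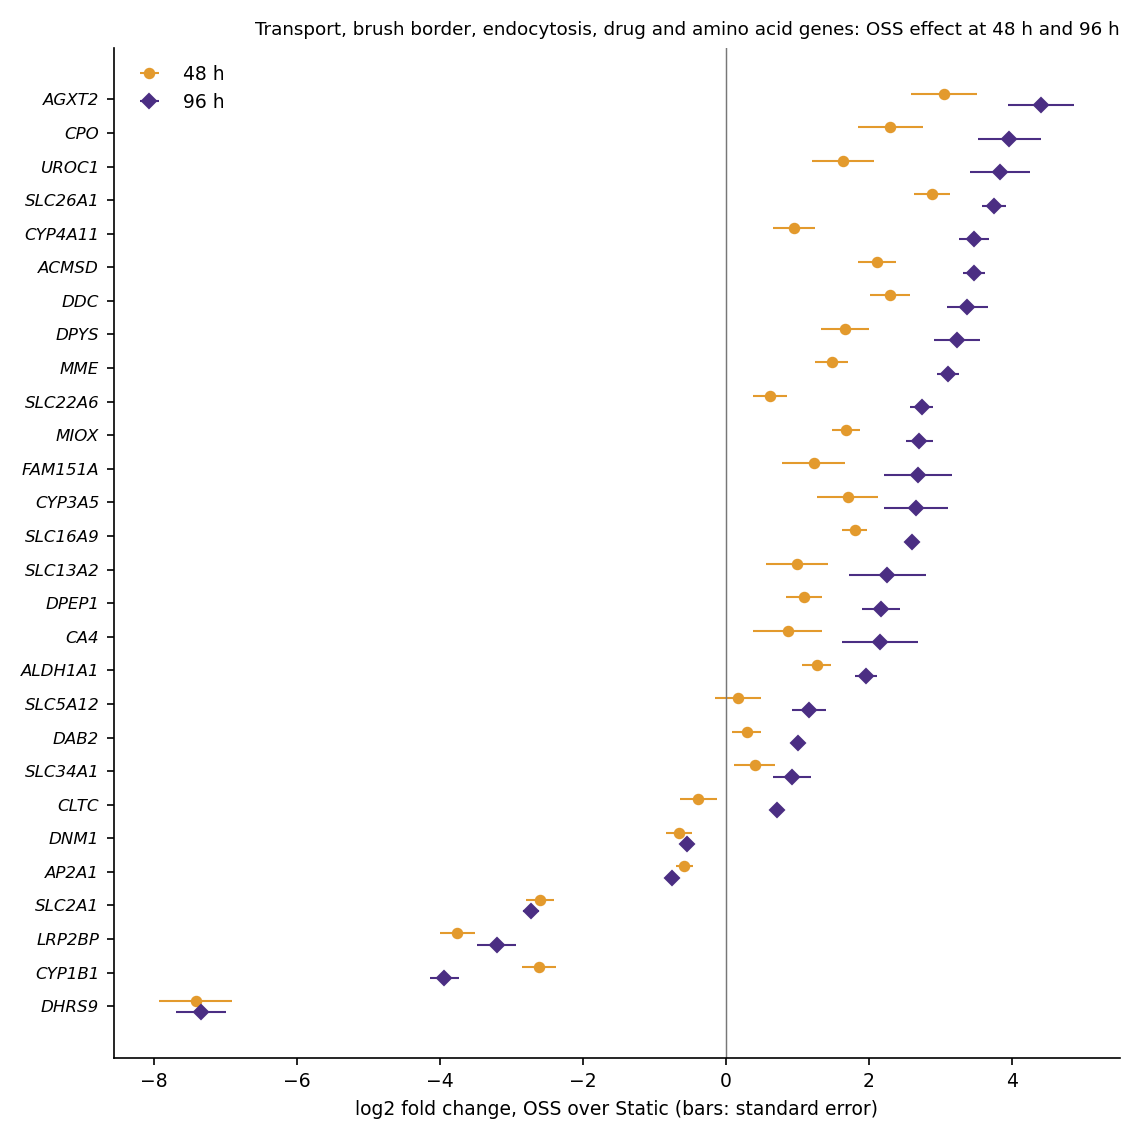
Log2 fold change of OSS over static at 48 h (orange, fit of all 18 libraries) and at 96 h (purple, fit of the 6 libraries of 96 h) with standard errors for 28 named genes of transport, brush border, endocytosis, drug and amino acid lists and proximal tubule markers. From CLTC upward every 96 h estimate is the higher, but no gene passed the test of the difference in edgeR without the block.

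Drug handling was divided. Of 25 oxidation and conjugation enzymes 10 rose and 5 fell. CYP3A5, a cytochrome P450 of drug and steroid oxidation, had 275, 218 and 85.5 CPM in OSS, against 37.4, 34.7 and 19.3 CPM in static cells (2.66 ± 0.45, adjusted p = 0.00244). ALDH1A1, which makes retinoic acid, had 443, 480.3 and 351 CPM in OSS, against 121, 117 and 89.6 CPM in static cells (1.96 ± 0.15, adjusted p = 0.000105). CYP1B1, another cytochrome P450, had 12, 16.8 and 21.5 CPM in OSS, against 272, 259.7 and 242 CPM in static cells (-3.94 ± 0.20, adjusted p = 2.58e-05). CYP3A5 had its lowest OSS value in replicate 3, above all static values, and CYP1B1 was more than an order of magnitude lower in OSS. The efflux pump ABCC2 of the apical membrane had 862, 859.6 and 552 CPM in OSS, against 111, 121 and 105 CPM in static cells (2.76 ± 0.18, adjusted p = 6.15e-05), and ABCC4 rose by 1.45. Among 19 genes of the sodium pump, potassium channels and carbonic anhydrases 9 rose and 4 fell. The potassium channel subunit KCNJ16, which sits in the basolateral membrane, had 7.35, 3.23 and 1.46 CPM in OSS, against 0.198, 0.0175 and 0.122 CPM in static cells (5.17 ± 0.83, adjusted p = 0.00197), and the subunit KCNAB2 had 5.3, 5.27 and 6.36 CPM in OSS, against 39.1, 45.2 and 38.1 CPM in static cells (-2.85 ± 0.11, adjusted p = 1.23e-05).

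Transcription regulators of the tubule did not move as a block. Of 29 members 10 rose and 7 fell (median 0.15), and the rises were 6 without OSS replicate 2 or static replicate 2. HNF4A, which many tubule genes depend on, did not pass (-0.02 ± 0.06, adjusted p = 0.764; 195 ± 11.2 CPM in OSS and 198 ± 2.27 CPM in static cells, SD, n = 3 each). ELF3, an epithelial ETS factor, had 119, 114 and 117 CPM in OSS, against 346, 323 and 291 CPM in static cells (-1.46 ± 0.07, adjusted p = 2.42e-05). PPARG, a nuclear receptor of lipid metabolism, had 48.3, 56.8 and 55.2 CPM in OSS, against 22.7, 26.3 and 27.4 CPM in static cells (1.07 ± 0.10, adjusted p = 0.000169). ELF3 and PPARG were tight within groups and separated between them.

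Genes that tubule cells turn on after injury or when they lose their identity were mostly lower. Of 27 members 16 fell, 10 of them at least 2-fold, and 2 rose, with a median of -0.62. S100A4, a calcium-binding protein linked to mesenchymal cells, had 20.9, 18.8 and 28.4 CPM in OSS, against 307, 287 and 245 CPM in static cells (-3.62 ± 0.17, adjusted p = 2.06e-05). KRT7, a keratin of distal and ductal epithelia, had 6.75, 13 and 12.6 CPM in OSS, against 88.8, 125 and 147 CPM in static cells. The levels of S100A4 and KRT7 were far apart between the groups. ANXA1, an annexin, had 141, 120.4 and 128 CPM in OSS, against 649, 571 and 435 CPM in static cells (-2.09 ± 0.15, adjusted p = 7.12e-05). SPP1, osteopontin, had 203, 209.5 and 121 CPM in OSS, against 759, 833 and 502 CPM in static cells (-1.97 ± 0.26, adjusted p = 0.000818). No library of OSS cells reached a static value for these genes, which were picked for their large changes. The groups also did not overlap for 60.6% of all genes tested. LGALS7, a galectin, fell (-2.53). The rises were 4 in the blocked fit and 1 without OSS replicate 1 or 2 or static replicate 2 or 3.

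Matrix genes fell more often than they rose. Of 47 members 25 fell, 14 of them at least 2-fold, and 11 rose, 7 of them at least 2-fold (median -0.37). POSTN, the matricellular protein periostin, had 26.9, 84 and 179 CPM in OSS, against 744, 1334 and 2043 CPM in static cells (-3.84 ± 0.71, adjusted p = 0.00362). LAMA4, a laminin chain, had 10.1, 14.5 and 21.4 CPM in OSS, against 82, 144 and 197 CPM in static cells (-3.20 ± 0.39, adjusted p = 0.000569). POSTN and LAMA4 were lowest in replicate 1 of both conditions, and the groups did not overlap. COL8A1, a short-chain collagen, had 1.03, 2.51 and 3.59 CPM in OSS, against 0.286, 0.419 and 0.436 CPM in static cells (2.64 ± 0.47, adjusted p = 0.00312). COL11A1 (-2.78) and LTBP1, which stores TGF-beta in the matrix (-2.61), fell. The summed fibroblast and pericyte markers were lower beside this list, as given above, and their part in it was not tested.

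The actin and adhesion list showed 25 falls and 8 rises among 43 members (median -0.36). FLNA, which crosslinks actin filaments, had 264, 262 and 250.3 CPM in OSS, against 1179.8, 1267 and 1385 CPM in static cells (-2.31 ± 0.08, adjusted p = 1.06e-05). MYL9, a myosin light chain of contractile fibers, had 51.7, 58.6 and 56 CPM in OSS, against 151, 155 and 148 CPM in static cells (-1.45 ± 0.06, adjusted p = 1.27e-05). ACTB, beta-actin, had 493, 387 and 485 CPM in OSS, against 1143, 1103 and 1175 CPM in static cells (-1.33 ± 0.10, adjusted p = 9.45e-05), and ACTG1, gamma-actin, fell (-1.09). Values within each group were close together for these genes. Of 29 junction genes 7 rose and 9 fell, close to the 25.6% and 26.1% of all genes, and 14 fell in the blocked fit. CDH16, the kidney-specific cadherin, had 1473, 1305 and 1066 CPM in OSS, against 464, 467 and 419.8 CPM in static cells (1.51 ± 0.12, adjusted p = 0.000117). CLDN4, a claudin of tight distal epithelia, had 26.6, 17.5 and 25.3 CPM in OSS, against 110.4, 61.2 and 74.2 CPM in static cells (-1.83 ± 0.25, adjusted p = 0.000906), whereas CLDN10 rose by 0.88.

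Targets of YAP, a coactivator that responds to cell shape and tension, were lower: 15 of 24 fell and 2 rose, with a median of -0.66. CYR61, a secreted protein often used to read YAP activity, had 88, 66.4 and 89.4 CPM in OSS, against 385, 266 and 270.0 CPM in static cells (-1.92 ± 0.18, adjusted p = 0.000196). MYOF, a membrane repair protein, had 416, 399 and 451 CPM in OSS, against 1358, 1287 and 1170.2 CPM in static cells (-1.59 ± 0.08, adjusted p = 2.20e-05). CTGF, another target in common use, did not pass (-0.08 ± 0.09, adjusted p = 0.484). Not every target thus moved, and leaving out Static 96 h replicate 2 gave 0 rises, and leaving out its replicate 3 or any OSS library gave 1. In the TGF-beta list 18 of 29 members fell and 1 rose (median -0.49). BMP2, a ligand of this family, had 0.75, 0.902 and 0.754 CPM in OSS, against 3.96, 4.66 and 3.52 CPM in static cells (-2.33 ± 0.18, adjusted p = 0.000102), and the activin subunits INHBA (-1.24) and INHBB (-1.38) fell.

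Genes that respond to shear in endothelium were listed without regard to the direction of that response. Their counts therefore cannot show whether these epithelial cells followed it. Of 26 members 14 fell and 5 rose (median -0.42). EDN1, the vasoconstrictor endothelin, had 15.4, 10.2 and 11.5 CPM in OSS, against 54, 43.4 and 49.9 CPM in static cells (-2.0 ± 0.17, adjusted p = 0.000125). ANGPT1, a ligand of endothelial cells, had 5.03, 7.68 and 8.77 CPM in OSS, against 21.5, 28.9 and 25.3 CPM in static cells (-1.81 ± 0.21, adjusted p = 0.000472). KLF2, the flow-induced factor of endothelium, did not pass (-0.26 ± 0.39, adjusted p = 0.599). Caveolae, membrane pits held in place by caveolins and cavins, had 8 tested members, of which 1 rose (EHD1, 0.85) and 2 fell. The rises numbered 3 in the blocked fit and 2 without Static 96 h replicate 3. CAVIN1 had 48.8, 51.6 and 44.8 CPM in OSS, against 145, 153 and 151 CPM in static cells (-1.64 ± 0.07, adjusted p = 1.27e-05). CAV1 had 205, 161 and 105 CPM in OSS and 156, 137 and 92.6 CPM in static cells and did not pass (0.29 ± 0.27, adjusted p = 0.404). In each pair of equal replicate number CAV1 was higher in OSS, and it passed in the blocked fit (adjusted p = 0.00402).

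Inflammatory mediators were lower: 15 of 25 fell and 1 rose, with a median of -0.54. PTGES, which makes prostaglandin E2, had 15, 24.2 and 36 CPM in OSS, against 448, 414 and 457 CPM in static cells (-4.13 ± 0.30, adjusted p = 8.29e-05). NOS2, the inducible nitric oxide synthase, had 1.28, 2.14 and 4.06 CPM in OSS, against 11.7, 38.1 and 54.6 CPM in static cells (-3.77 ± 0.64, adjusted p = 0.00242). CSF3, a growth factor of granulocytes, had 3.65, 6.52 and 9.02 CPM in OSS, against 32.3, 31.1 and 40.9 CPM in static cells (-2.43 ± 0.30, adjusted p = 0.000607). NOS2 was lowest in replicate 1 and highest in replicate 3 of both conditions. Tested leukocyte markers beside this list summed to 16.1 to 20.7 CPM in OSS and 19.8 to 20.7 CPM in static libraries. Interferon-stimulated genes had 7 rises and 2 falls among 18 members. IFIT1, which binds viral RNA, had 48.4, 50.6 and 25.5 CPM in OSS, against 8.05, 7.68 and 5.26 CPM in static cells (2.57 ± 0.29, adjusted p = 0.000459). UBA7, the enzyme that activates ISG15, had 1.28, 1.64 and 1.18 CPM in OSS, against 8.16, 7.37 and 6.97 CPM in static cells (-2.46 ± 0.16, adjusted p = 6.15e-05). The falls became 7 in the blocked fit, 6 without both replicate 1 libraries, and 1 without OSS replicate 2 or static replicate 2 or 3.

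Defence proteins of mucous surfaces differed between replicates of each condition as well as between conditions. Their summed level was 8776, 16701 and 22548 CPM in OSS libraries, against 4001, 8447 and 15688 CPM in static libraries, lowest in replicate 1 and highest in replicate 3 of both. Of 13 members 3 rose and 3 fell, close to the 25.6% and 26.1% of all genes. LTF, the iron binder lactoferrin, gave most of that sum and did not pass (0.77 ± 0.55, adjusted p = 0.274; 7757, 15015 and 20744 CPM in OSS and 3237, 7596 and 14506 CPM in static cells). In each pair of equal replicate number LTF was higher in OSS, and it passed in the blocked fit (adjusted p = 0.000462). REG3G, an antibacterial lectin, had 1.2, 1.74 and 1.98 CPM in OSS, against 5.65, 7.3 and 8.65 CPM in static cells (-2.12 ± 0.23, adjusted p = 0.000371). Rises numbered 7 in the blocked fit, 5 without both replicate 1 libraries, and 1 without OSS replicate 2 or static replicate 2 or 3.

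Iron and heme genes as a list showed no lean (median 0.02). Of 31 members 9 rose and 7 fell, close to the 25.6% and 26.1% of all genes. ALAS1, the first enzyme of heme synthesis, had 151, 157 and 186 CPM in OSS, against 503, 468 and 508 CPM in static cells (-1.58 ± 0.09, adjusted p = 3.80e-05). SLC11A2, the iron importer DMT1, had 181, 252 and 309.8 CPM in OSS, against 621, 655 and 704 CPM in static cells (-1.42 ± 0.18, adjusted p = 0.000702). STEAP3, an endosomal iron reductase, had 23.4, 23.8 and 24.9 CPM in OSS, against 62, 62.1 and 67.3 CPM in static cells (-1.41 ± 0.06, adjusted p = 1.51e-05). These 3, picked for their large changes, fell without overlap. HPX, the heme carrier hemopexin, had 61.5, 376 and 346 CPM in OSS, against 8.95, 28.2 and 41 CPM in static cells (3.32 ± 0.78, adjusted p = 0.010), and replicate 1 was far lower in both conditions. Antioxidant genes, many of them targets of NRF2, had 19 rises and 12 falls among 38 members. GPX2, a glutathione peroxidase, had 2.9, 2.42 and 1.66 CPM in OSS, against 13.8, 12.8 and 10.7 CPM in static cells (-2.44 ± 0.21, adjusted p = 0.000151), and PRDX2, a peroxiredoxin, fell (-1.07).

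Chaperones rose. In the endoplasmic reticulum 16 of 23 folding genes rose and 3 fell (median 0.37). HYOU1, a large chaperone of that compartment, had 222, 256 and 226 CPM in OSS, against 89.9, 84 and 78.9 CPM in static cells (1.48 ± 0.08, adjusted p = 2.90e-05). HSPA5, the chaperone BiP, had 1217, 1299 and 1315 CPM in OSS, against 632, 517 and 585 CPM in static cells (1.14 ± 0.09, adjusted p = 8.73e-05). Both were about equal across the replicates of a group, and MANF (1.17) and CALR (1.13) rose as well. Of 18 heat shock proteins 12 rose and 2 fell (median 0.30), with HSPD1, the mitochondrial HSP60, at 1413, 1355 and 1292 CPM in OSS, against 737, 686 and 648 CPM in static cells (0.97 ± 0.07, adjusted p = 8.13e-05). Genes of serine synthesis and of the stress factor ATF4 went both ways, with 9 rises and 15 falls among 27 members. PSAT1, the aminotransferase of serine synthesis, had 417, 375 and 296 CPM in OSS, against 84.8, 87 and 76.3 CPM in static cells (2.13 ± 0.13, adjusted p = 5.10e-05). ALDH1L2, a mitochondrial folate enzyme, had 4.88, 4.36 and 5.52 CPM in OSS, against 32.2, 39.7 and 47.9 CPM in static cells (-3.02 ± 0.17, adjusted p = 3.72e-05).

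Lipid synthesis and lysosomes gave smaller or divided changes. Of 32 genes of cholesterol and fatty acid synthesis 11 rose and 2 fell (median 0.41), and 22 rose in the blocked fit. HMGCS1, which makes HMG-CoA for sterols, had 948, 1124 and 1456 CPM in OSS, against 282, 351 and 602 CPM in static cells (1.51 ± 0.29, adjusted p = 0.00450). ACACA, which makes malonyl-CoA, had 122, 129 and 137 CPM in OSS, against 51, 59.6 and 67.7 CPM in static cells (1.12 ± 0.11, adjusted p = 0.000220). Both genes were higher in replicate 3 and lower in replicate 1 within each condition. Leaving out Static 96 h replicate 2 gave 6 rises and leaving out Static 96 h replicate 3 gave 18, and 1 gene fell without OSS replicate 1 or 2 or static replicate 2 or 3. Of 53 lysosomal genes 19 rose and 14 fell. ATP6V0A4, a proton pump subunit of kidney, rose by 1.33. CTSS, a cathepsin, had 13.1, 15.5 and 16 CPM in OSS, against 76.9, 59.9 and 53.9 CPM in static cells (-2.09 ± 0.14, adjusted p = 6.65e-05), and CTSC, another, fell (-1.74).

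Catecholamine and serotonin genes had 4 rises and 7 falls among 14 members. SLC6A4, the serotonin transporter, had 0.10, 0.43 and 0.371 CPM in OSS, against 3.61, 3.42 and 3.21 CPM in static cells (-3.42 ± 0.39, adjusted p = 0.000464). TPH1, which starts serotonin synthesis, had 0.45, 0.375 and 0.728 CPM in OSS, against 1.72, 1.75 and 1.9 CPM in static cells (-1.78 ± 0.29, adjusted p = 0.00217). Both were lower in every OSS library, whereas DDC rose, as given above, and so did SLC6A3, the dopamine transporter (2.18). The rises were 2 without OSS replicate 2 or static replicate 1 or 2, and the falls 4 without Static 96 h replicate 3.

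Most ribosomal protein genes were lower by a small step. Of 66 cytosolic ribosomal protein genes 48 fell, none of them by 2-fold, and 0 rose, with log2 fold changes of -0.87 to -0.06 and a median of -0.47; edgeR at an unadjusted p under 0.05 and DESeq2 also gave 0 rises. RPS3A had 1543, 1442 and 1478 CPM in OSS, against 2543, 2519 and 2280.0 CPM in static cells (-0.72 ± 0.07, adjusted p = 0.000187). RPL22 had 445, 340.5 and 377 CPM in OSS, against 787, 690.0 and 651 CPM in static cells (-0.87 ± 0.12, adjusted p = 0.000843). Summed, these genes took 48692, 41733 and 42635 CPM in OSS libraries, against 65804, 59449 and 56479 CPM in static libraries. Reads of such genes can be shared with pseudogenes, and how the counting treated them is not given in the sources used here.

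Cell division genes were higher in OSS than in static cells at 96 h by a step of like size. Of 47 mitosis genes 42 rose and 0 fell, with a median of 0.56; edgeR at an unadjusted p under 0.05 and DESeq2 also gave 0 falls. Of 42 genes of DNA replication 26 rose and 1 fell, with a median of 0.51. CENPN, a kinetochore protein, had 38.2, 34.1 and 45.8 CPM in OSS, against 18.6, 19.5 and 18.1 CPM in static cells (1.07 ± 0.11, adjusted p = 0.00030). CCNB2, a mitotic cyclin, had 60.2, 54.2 and 70.4 CPM in OSS, against 34.7, 37.1 and 28 CPM in static cells (0.89 ± 0.13, adjusted p = 0.00127). RRM2, the ribonucleotide reductase subunit of S phase, had 144, 118 and 147 CPM in OSS, against 77.8, 70.6 and 58.4 CPM in static cells (0.98 ± 0.12, adjusted p = 0.000703). Every OSS library of these genes, chosen by size of change, exceeded every static one. CENPN was the only mitosis gene past 2-fold. Summed levels of the mitosis genes were 3513, 3232 and 4035 CPM in OSS libraries, against 2507, 2573 and 2326 CPM in static libraries. Both groups lay below the Static 0 h libraries, at 5714, 5421 and 6388 CPM.

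**Figure D4:**
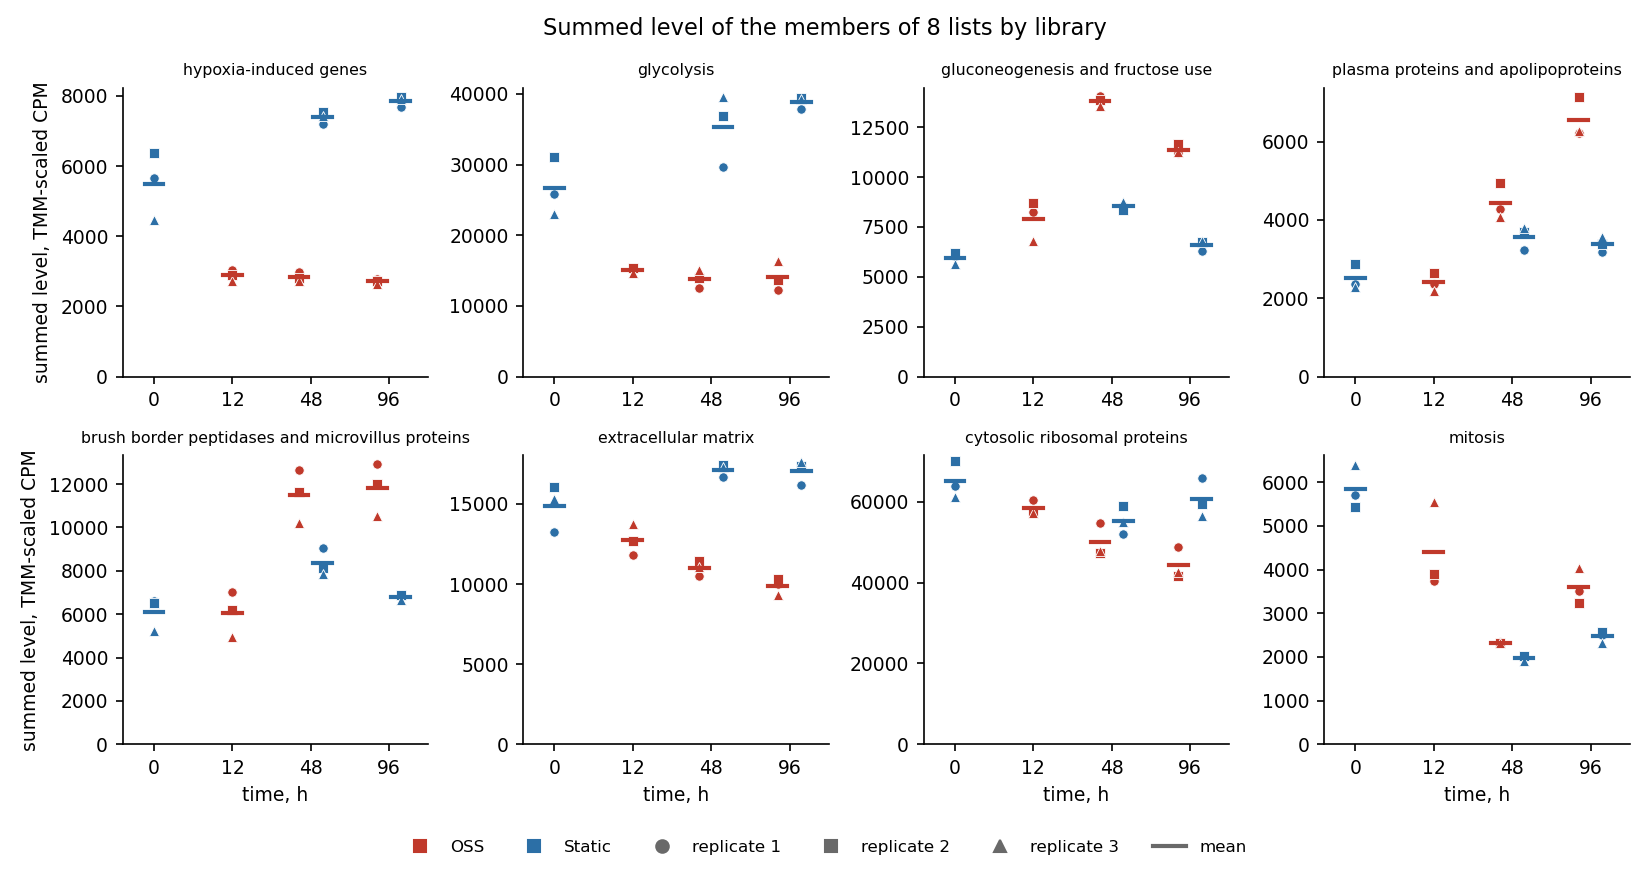
Summed level (TMM-scaled CPM) of the members of 8 gene lists in each of the 18 libraries over time, with OSS in red left of Static in blue at 48 and 96 h, replicates as shapes and means as bars. At 96 h the OSS and static libraries do not overlap in any panel.

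Set beside 48 h, the 96 h difference was mostly the same in direction. At 48 h 3018 genes (23.5%) rose and 3138 (24.4%) fell in OSS, in a fit of all 18 libraries. The number of calls at each time depended on the libraries fitted: all 18 gave 5999 at 96 h and 6156 at 48 h, whereas the 6 libraries of each time gave 6636 at 96 h and 4540 at 48 h. Of the genes called at either time 4703 were called at both, which is 70.9% of the 96 h calls and 76.4% of the 48 h calls, and 4681 of them had the same direction. Log2 fold changes at 96 and 48 h had a Pearson r of 0.885 across the 12840 genes, which are not independent replicates. Of the 307 genes changed at least 4-fold at 96 h, 290 were called in the same direction at 48 h. Hypoxia-induced genes had a median of -1.66 at 96 h and -1.49 at 48 h, and glycolysis -1.60 and -1.41. Ribosomal protein genes had medians of -0.47 and -0.14. In the fit of all 18 libraries 52 of them fell at 96 h and 16 at 48 h. In the same fit 42 mitosis genes rose at 96 h and 14 at 48 h, and 21 carriers rose at 96 h and 12 at 48 h. Whether these list counts differ between the times was not tested.

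For single genes the test of the 96 h effect minus the 48 h effect called 0 of 12840 (0%) in edgeR. An unadjusted p under 0.05 was met by 1583 (12.3%), 861 higher and 722 lower. DESeq2 called 225, 75 higher and 150 lower, and the blocked fit of edgeR 138, 82 higher and 56 lower. Leaving out Static 48 h replicate 3 gave 24 calls, and leaving out either Static 48 h replicate 2 or OSS 96 h replicate 3 gave 2. SLC22A6 had among the smallest p of this test. Its log2 fold change was 2.74 at 96 h and 0.62 at 48 h, a difference of 2.13 ± 0.34 (adjusted p = 0.108). CYP4A11 differed by 2.52 ± 0.42 (adjusted p = 0.108), at 309.6 ± 75.3 CPM in OSS and 27.8 ± 4.6 CPM in static cells at 96 h. HOGA1, the last enzyme of hydroxyproline breakdown, differed by 0.98 ± 0.17 (adjusted p = 0.132) and KIF9, a kinesin of cilia, by 0.64 ± 0.12 (adjusted p = 0.132). On the lower side stood S100A4 at -1.12 ± 0.22 (adjusted p = 0.132), BLVRB, biliverdin reductase B, at -0.69 ± 0.14 (adjusted p = 0.132) and PSMB4, a proteasome subunit, at -0.48 ± 0.10 (adjusted p = 0.175). In simulated data this test found 57% of 2-fold and 95% of 4-fold differences, against 89% and 99% for OSS against static at 96 h. The simulation changed 100 genes by 2-fold and 100 by 4-fold among 12840. It took the spread from the dispersion trend and held no effect of replicate number. In the real data far more genes were called and same-numbered libraries deviated together, so these percentages need not hold there.

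**Figure D5:**
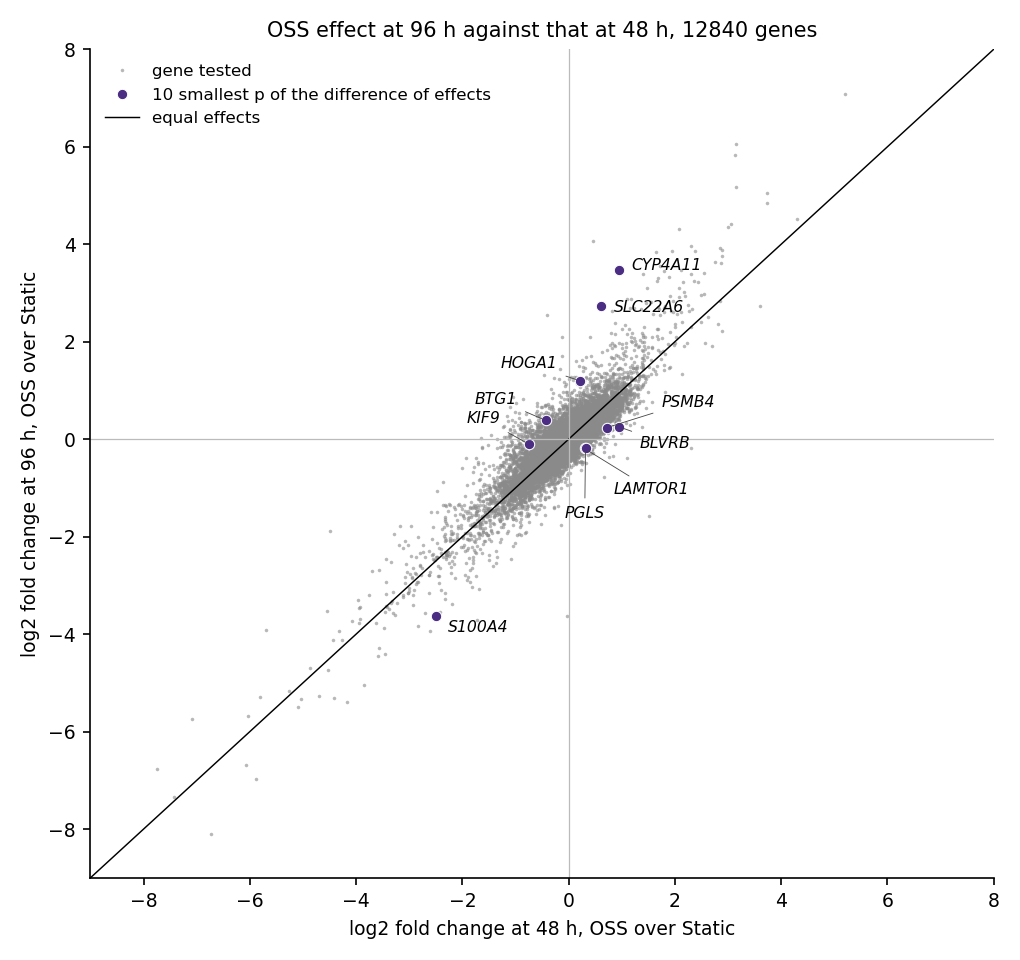
Log2 fold change of OSS over static at 96 h (vertical) against that at 48 h (horizontal) for each tested gene (gray), with the line of equal effects and, in purple, the 10 genes with the smallest p for the difference, 5 in each direction. Most genes lie near the line, with SLC22A6 and CYP4A11 above it and S100A4 below.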

How the data were processed

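RNA of OK cells (3 experiments pooled per sample) was depleted of rRNA, made into stranded TruSeq libraries and read as 75-base pairs. The authors trimmed with cutadapt, aligned with TopHat2 to MonDom5, removed mitochondrial and rRNA reads, and deposited raw counts per Ensembl gene from featureCounts (Subread); versions and the strand setting are not given in the sources used here. The deposited averages, ratios and p-values were not used. Counts were tested with edgeR 4.0.16 (TMM, trended dispersion, quasi-likelihood F-test) on the 6 libraries, with Benjamini-Hochberg adjustment over 12840 genes. The 48 h effect and the difference of effects came from 1 fit of 18 libraries. The biological coefficient of variation was 14.4%. Same-numbered libraries deviated together (r = 0.712, 0.502 and 0.519), against -0.606 to 0.320 for unlike numbers. The labels do not state that the numbers pair the samples. A fit with that block is given where it changed a call, and other calls and p-values come from the fit without it. Genes were named by the largest change or the most reads among called genes with a mean log2 CPM of at least 1, no overlap of groups and 1 tested entry, by the largest change within each list, the smallest p of the difference, or because the study discusses them. CTGF, HKDC1, HNF4A, KLF2, LTF, PFKFB4 and SLC7A9 fall outside this rule and were chosen after their values were seen. Members and lists were chosen with earlier results of these data known. The tests were tried on simulated data. Alternatives were DESeq2 1.42.0, other scaling and filters, 1 entry per gene name, leaving out libraries and thinning of counts. R 4.3.3, Python 3.11.15 and matplotlib 3.10.9 were used. Some genes that the rule names are not reported here.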

Additional observations from a re-analysis of the deposited data

Results flagged for a closer look

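Of the 12840 genes tested, 63 had libraries that separated in opposite directions at 48 and 96 h, and 3 of them are genes named by the rule. With 3 libraries per group such separation also arises by chance, and whether 63 exceeds that was not tested. BTG1, an antiproliferative factor, had a 96 h effect minus 48 h effect of 0.82 on the log2 scale (adjusted p = 0.108). LAMTOR1, a lysosomal anchor of mTOR signaling, gave -0.49 (adjusted p = 0.132) and PGLS, an enzyme of the pentose phosphate path, -0.49 (adjusted p = 0.132). None of these 3 differences passed the test in edgeR.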

How the results depend on the processing

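The count of 6636 calls was 8309 in the fit blocked by replicate number, 6890 in DESeq2, 6773 without scaling and 5441 to 6357 with 1 library left out, and 6837 without both replicate 1 libraries, an alternative chosen after seeing the data. Of 222 called genes among the 226 named, 205 kept their call in every alternative, and of 3616 alternative values 0 were reversed. Among the genes named in the text the block changed the calls of AMN, CAV1, LTF and PFKFB4 and of no other. Some list counts moved by over 1.5 times. Without a filter on low counts 2 plasma protein genes fell instead of 4 and 1 coagulation gene instead of 4. Without scaling 4 hypoxia-induced genes rose instead of 2, and 4 respiratory chain genes fell instead of 7. In the fit of all 18 libraries 11 respiratory chain genes rose instead of 17 and 4 fell instead of 7, and 1 mucosal gene rose instead of 3. TCA cycle falls and YAP target and injury rises, 2 each, came to 1 in at least 1 of these alternatives. The difference between the 96 h and 48 h effects, 0 genes, was 138 with the block (82 higher, 56 lower) and 225 in DESeq2 (75 higher, 150 lower), and leaving out 1 library gave 0 to 24 (0 to 16 higher, 0 to 8 lower). The cause was not tested. Each library is a pool.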
